A study of Homo sapiens with 6 samples.

Results

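The authors' deposited table of genes called as changed between HepG2 cells given a control siRNA and HepG2 cells given an siRNA against H19 holds 43 rows, of 1998 in all, that carry the name of a noncoding or antisense transcript. They were chosen by name alone: LINC, LOC, SNHG or MIR followed by a number, or an ending in AS, IT or OT. HepG2 is an established human liver cancer line, H19 is an imprinted long noncoding RNA, and both groups, siCon and siH19, were collected 48 h after transfection with 3 libraries each. The RNA was total RNA depleted of ribosomal RNA and prepared with a strand-specific kit. Whether the 3 libraries were separate cultures is not in the labels. The authors' standard errors (SE) and adjusted p-values may therefore measure technical spread only. The table gives 1 combined value per group and no value per library. In bulk RNA of this kind, fewer cells of a type and less RNA per cell cannot be told apart.

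Long noncoding RNAs are transcribed and often spliced like messenger RNAs but are not known to be translated into a working protein. Many of those called antisense start close to a protein-coding gene on the opposite strand, either inside it, so that the transcripts overlap, or just upstream of it, so that both read away from a shared promoter region. Host transcripts are another kind: their introns release small nucleolar RNAs or microRNAs while the spliced remainder is frequently degraded.

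The noncoding names were mostly lower in siH19. Of the 43, 37 (86.0%) were lower and 6 were higher, beside 55.3% lower and 44.7% higher among all 1998 rows. Their median log2 fold change was -0.59, against -0.27 over all rows. The largest fall was a log2 fold change of -0.99 ± 0.16 (SE) and the largest rise 0.67 ± 0.14 in the authors' deposited table. No member changed 2-fold, beside 83 of all 1998 rows. At least a 1.5-fold change was seen for 25 members (58.1%), beside 28.2% of all rows. Under a mean normalized count of 100, where 20 members lie, this share was 75.0% of members and 75.3% of all rows. From 100 to 1000 counts it was 47.6% and 28.3%. The medians were -0.625 against -0.50 under 100 counts and -0.46 against -0.29 from 100 to 1000. Since the authors' deposited table lists called genes only, these shares and medians describe the direction and size of called changes. They do not give how often noncoding genes were called.

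**Figure D1:**
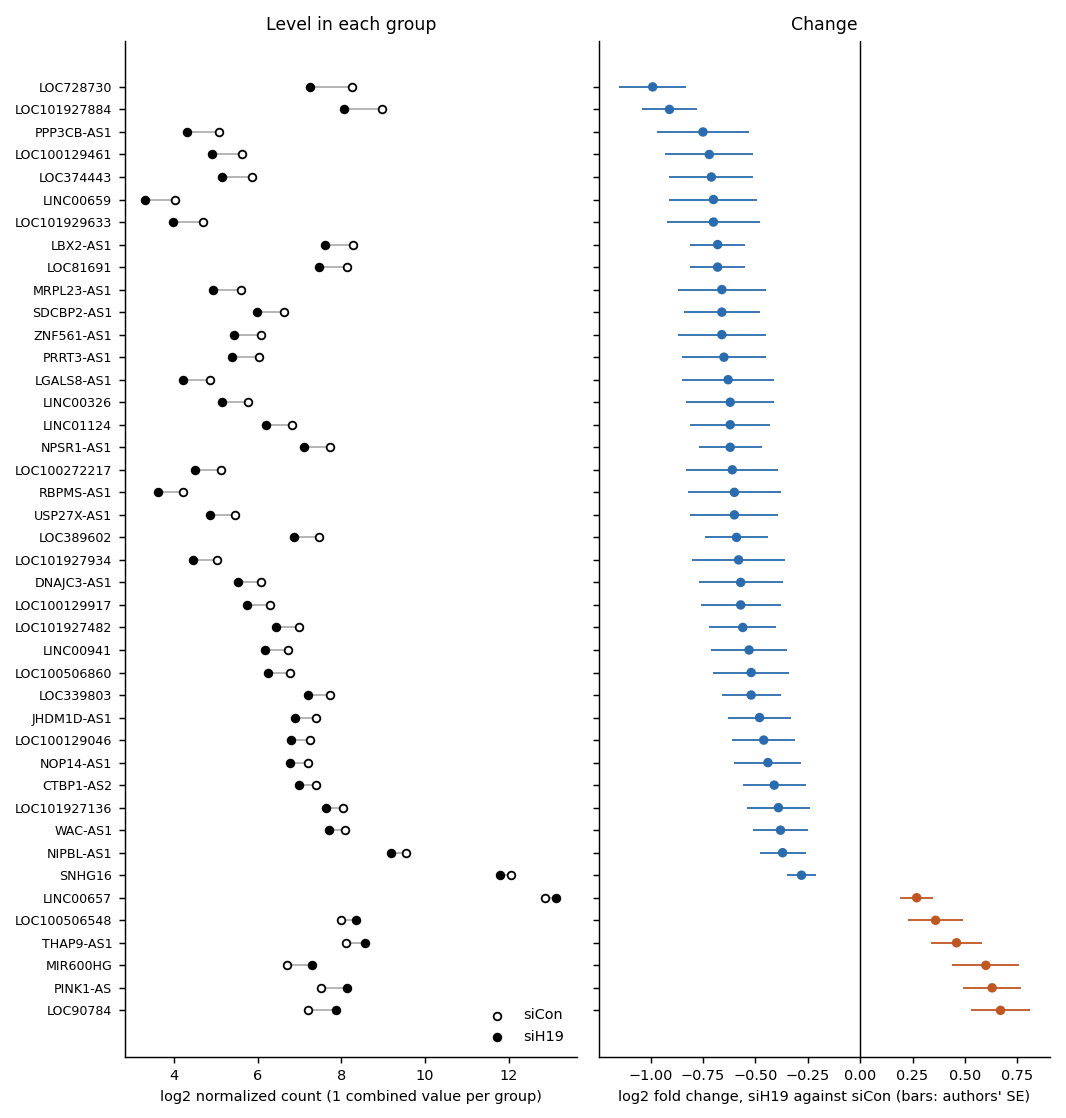
Left, log2 normalized count of 42 of the 43 members in siCon (open) and siH19 (filled), 1 combined value per group. Right, log2 fold change with the authors' SE, sorted from the largest fall to the largest rise: 36 of those shown lie below 0 and 6 above.

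A list of hepatocyte markers was looked up among the rows. Of 22 symbols 16 were rows of the table and all 16 were lower in siH19, beside 55.3% of all rows. Their mean normalized counts ran from 242 to 240657 in the authors' deposited table. A marker that is not a row was not called as changed but may be expressed, so these counts do not establish the cell type. Among markers of other cells, rows were 1 of 7 for fibroblasts or stellate cells, 1 of 5 for endothelium and 2 of 5 for blood cells. These rows were all lower too, with mean normalized counts from 78.6 to 20858 in the authors' deposited table. Their part in the changes of the noncoding names was not tested. H19 itself was not a row of the table under that symbol, so its level and the knockdown were not checked here.

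The names fall into 5 kinds. The 19 with an antisense ending comprised 17 lower and 2 higher, the 17 with a LOC number 15 lower and 2 higher, and the 5 LINC names 4 lower and 1 higher. SNHG16 and MIR600HG were the single members of their kinds. RefSeq held 41 of the 43 under a current name. It now calls 8 of them divergent transcripts (ending DT), and all 8 were lower, beside 86.0% lower among all 43. Another 18 carry an antisense ending today, 16 of them lower, and 11 of the LOC numbers have since received a name. One member, LOC81691, is the protein-coding gene REXO5 in RefSeq, an RNA exonuclease, and LOC374443 is a transcribed pseudogene, whose reads could be shared with the gene it resembles. The 2 members that RefSeq did not match, LOC90784 and LOC100506548, were both higher.

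All 20 members with a mean normalized count under 100 were lower, beside 51.1% of the 219 rows in that range. Between 100 and 1000 counts 16 of 21 members (76.2%) were lower, beside 52.7% of 1056 rows. The 2 members above 1000 counts were SNHG16, lower, and LINC00657, higher. The difference between these ranges was not tested. The mean counts of the members ran from 13.0 to 8268 with a median of 128, beside a median of 640 over all rows. For 7 members, all under 100 counts, the authors' SE was smaller than counting error for 3 libraries per group would give, taking the group value as the count of each library. Of the 20 low-count members 6 had an adjusted p under 0.01 (30.0%), beside 53.9% of all rows under 100 counts.

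**Figure D2:**
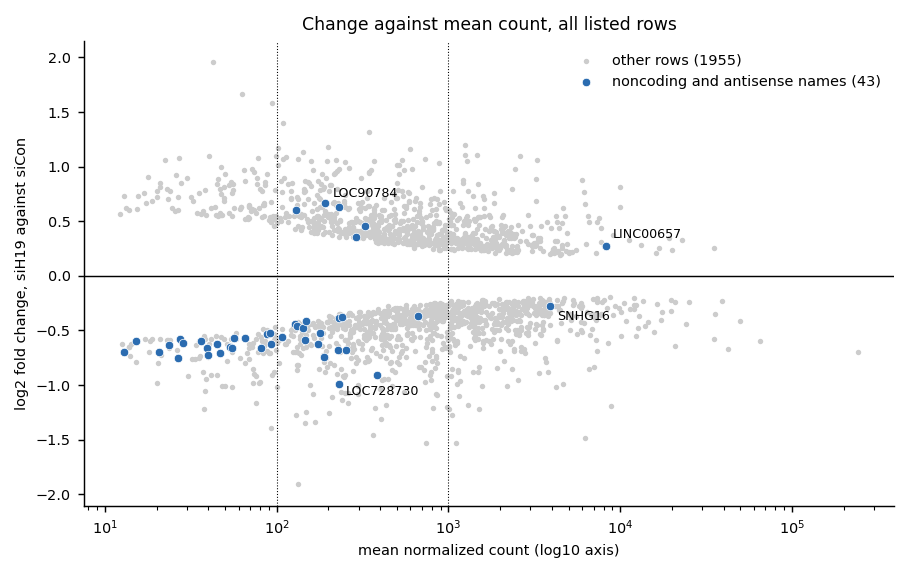
Log2 fold change against mean normalized count (log10 axis) for the 43 noncoding names (blue) and the other 1955 rows (grey), with dotted lines at 100 and 1000 counts. The members left of 100 counts all lie below 0.

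**Figure D3:**
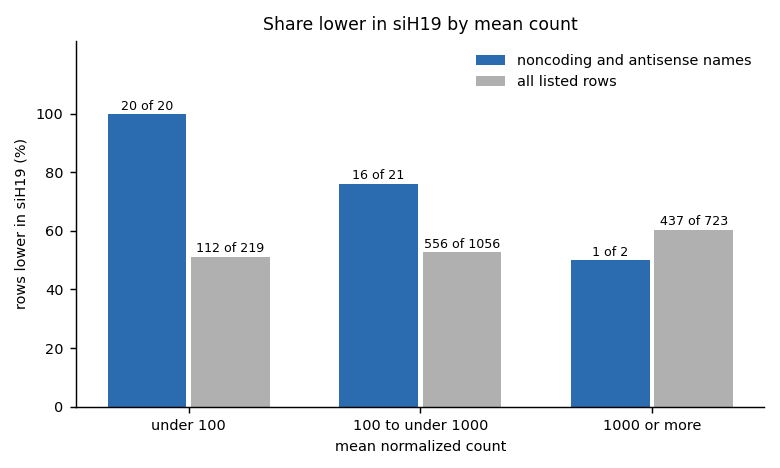
Percent of rows lower in siH19 in 3 ranges of mean normalized count, for the noncoding names and for all listed rows, with the number lower of the number in each range above each bar. The noncoding names stand at 20 of 20, 16 of 21 and 1 of 2.

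LINC00657, a cytoplasmic RNA now called NORAD and known for its role in keeping the genome stable, was the member with the highest mean count. It rose from 7486 normalized counts in siCon to 9027 in siH19, a log2 fold change of 0.27 ± 0.08 (adjusted p = 0.0154) in the authors' deposited table. Per kilobase of its longest annotated transcript it had 1549 counts, the highest of the 38 members with a transcript, whose median was 54.6 against 158 for all rows.

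SNHG16, a small nucleolar RNA host gene, carries SNORD1A, SNORD1B and SNORD1C in its introns, which guide methylation of ribosomal RNA. It fell from 4270 to 3541 normalized counts, a log2 fold change of -0.28 ± 0.07 (adjusted p = 0.00145) in the authors' deposited table. This was the smallest fall among the 37. It was second to LINC00657 per kilobase, at 1083 counts. None of the 3 small nucleolar RNAs was a row, and none of 19 symbols for proteins of small nucleolar particles and their assembly was.

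MIR600HG, the host transcript of the microRNA miR-600, moved the other way. It rose from 103 to 157 normalized counts, a log2 fold change of 0.60 ± 0.16 (adjusted p = 0.00161) in the authors' deposited table. GENCODE types MIR600HG as sense intronic, that is, within an intron of another gene on the same strand. Reads could therefore be shared with that gene whether or not strand was used. The mature microRNA is shown with its seed, bases 2 to 8, in capitals, since it is the product for which the host is named. It lies at chr9:123111561-123111583 on the minus strand in RefSeq (GRCh38.p14). The microRNA itself was not measured in these rows, so the host's rise gives no value for it.
hsa-miR-600: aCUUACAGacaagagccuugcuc

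Antisense names were compared with the genes they are named after. For 3 of the 19 a row carried the symbol before the ending, and for 16 none did. These counts match symbols as written, so JHDM1D-AS1, whose sense gene is listed under its newer symbol KDM7A, is among the 16. LGALS8-AS1 and LGALS8, which encodes the sugar-binding protein galectin-8, were both lower. LGALS8-AS1 went from 28.8 to 18.6 normalized counts and changed by -0.63 ± 0.22 (log2, adjusted p = 0.0286) in the authors' deposited table. LGALS8 went from 2978 to 1872 counts in the authors' deposited table, a log2 fold change of -0.67 ± 0.08. The difference between both log2 fold changes, 0.04 ± 0.23 (SE combined as for independent values), was smaller than its error. LGALS8-AS1 lies wholly within LGALS8 on the other strand in GENCODE, and without knowing whether strand was used in counting their reads cannot be told apart.

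DNAJC3-AS1 starts 214 bases from DNAJC3, a co-chaperone of the endoplasmic reticulum, and reads away from it. DNAJC3-AS1 fell from 67.7 to 45.9 normalized counts, a log2 fold change of -0.57 ± 0.20 (adjusted p = 0.0322) in the authors' deposited table. DNAJC3 fell from 1951 to 1629 counts, a log2 fold change of -0.25 ± 0.08 (adjusted p = 0.0150) in the authors' deposited table. Both changes had the same sign, and their difference was -0.32 ± 0.22. Of the 3 pairs that share a name, 2 had the same sign.

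Position added further neighbours whose symbols do not match. Of 5 members that start within 5 kb of a listed gene on the other strand without overlapping it, DNAJC3-AS1 included, 3 had its sign. JHDM1D-AS1 lies 149 bases from KDM7A, a histone demethylase once called JHDM1D. It changed by -0.48 ± 0.15 and KDM7A by -0.32 ± 0.10 on the log2 scale in the authors' deposited table. LOC339803, now C2orf74-DT, lies 99 bases from C2orf74, and they changed by -0.52 ± 0.14 and -0.48 ± 0.16 in the authors' deposited table. These were the closest starts and the closest match among the divergent pairs, with a difference of -0.04 ± 0.21. LINC00941 lies 216 bases from CAPRIN2, an RNA-binding protein, and the 2 moved apart. LINC00941 changed by -0.53 ± 0.18 and CAPRIN2 by 0.33 ± 0.09 on the log2 scale in the authors' deposited table.

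The promoter windows of 4 divergent members are shown because each lies between 2 listed genes that read away from each other, the first 3 with partners that fell with them and LINC00941 with a partner that rose. Each window runs from 250 bases before to 50 after the start, 5′ to 3′ on the member's strand, from RefSeq on GRCh38.p14: DNAJC3-AS1 at chr13:95676876-95677175 (minus), JHDM1D-AS1 at chr7:140177011-140177310 (plus), LOC339803 at chr2:61144926-61145225 (minus) and LINC00941 at chr12:30795431-30795730 (plus). Capitals mark the NF-Y letters CCAAT, the ETS core CCGGAAG, the E-box CACGTG, the CREB site TGACGTCA and the SP factor letters GGGCGGG, searched on both strands.
DNAJC3-AS1: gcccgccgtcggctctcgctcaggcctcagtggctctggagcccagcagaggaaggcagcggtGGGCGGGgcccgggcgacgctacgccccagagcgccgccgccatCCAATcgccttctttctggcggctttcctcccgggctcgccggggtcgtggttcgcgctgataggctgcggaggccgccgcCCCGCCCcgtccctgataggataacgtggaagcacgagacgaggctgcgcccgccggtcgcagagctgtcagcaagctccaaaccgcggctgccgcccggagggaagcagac
JHDM1D-AS1: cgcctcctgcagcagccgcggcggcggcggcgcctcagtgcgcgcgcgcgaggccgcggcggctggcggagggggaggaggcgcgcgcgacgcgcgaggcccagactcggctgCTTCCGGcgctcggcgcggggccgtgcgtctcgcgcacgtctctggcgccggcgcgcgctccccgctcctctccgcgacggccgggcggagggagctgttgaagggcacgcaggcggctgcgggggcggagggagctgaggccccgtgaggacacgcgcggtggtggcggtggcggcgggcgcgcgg
LOC339803: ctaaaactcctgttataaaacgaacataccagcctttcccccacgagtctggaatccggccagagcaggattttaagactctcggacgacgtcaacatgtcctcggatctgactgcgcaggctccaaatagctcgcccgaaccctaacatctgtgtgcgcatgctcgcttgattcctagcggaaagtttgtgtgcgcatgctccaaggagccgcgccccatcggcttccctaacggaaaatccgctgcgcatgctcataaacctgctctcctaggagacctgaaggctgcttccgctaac
LINC00941: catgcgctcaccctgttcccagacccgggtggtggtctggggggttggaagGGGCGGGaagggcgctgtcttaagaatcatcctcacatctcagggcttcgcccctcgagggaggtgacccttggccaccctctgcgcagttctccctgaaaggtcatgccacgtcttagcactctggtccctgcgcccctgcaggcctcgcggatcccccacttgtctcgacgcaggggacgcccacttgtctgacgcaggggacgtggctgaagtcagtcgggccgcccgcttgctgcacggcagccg

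The windows of DNAJC3-AS1 and DNAJC3 shared 287 of 300 bases, those of LOC339803 and C2orf74 240, and those of JHDM1D-AS1 and KDM7A 223. CAPRIN2 was not matched in the promoter table, so no shared length was computed for LINC00941. DNAJC3-AS1 held 1 CCAAT and 2 copies of GGGCGGG. JHDM1D-AS1 held 1 CCGGAAG in a window of 82.0% G and C. LOC339803 held none of the 5 letter runs, and LINC00941 held 1 GGGCGGG. For comparison, CCAAT was found in 31.4% of 35 member windows, 35.1% of the windows of 1620 listed rows and 35.7% of 27305 RefSeq windows. GGGCGGG was found in 42.9%, 54.1% and 32.9% of them.

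Of 4 members that overlap a listed gene on the other strand, 3 moved against it and LGALS8-AS1 did not. The 3 were lower while the gene across from them was higher. Over all 9 pairs on opposite strands, 5 had opposite signs. Among all members 86.0% were lower and among all rows 44.7% were higher, so opposite signs are common between such rows. Whether these 4 pairs differ from that was not tested. LOC101927884, now EVA1A-AS, fell from 498 to 265 normalized counts, a log2 fold change of -0.91 ± 0.13 with an adjusted p written as 0, below the precision of the authors' deposited table. EVA1A, a membrane protein linked to autophagy, rose from 370 to 465 counts, by 0.34 ± 0.12 (adjusted p = 0.0262) in the authors' deposited table. PPP3CB-AS1 overlaps USP54, a member of the ubiquitin protease family, on the other strand, and fell from 33.4 to 19.8 counts in the authors' deposited table. Its log2 fold change was -0.75 ± 0.22 against 0.71 ± 0.09 for USP54 in the authors' deposited table. ZNF561-AS1 changed by -0.66 ± 0.21 and the zinc finger gene ZNF562, which it also overlaps, by 0.37 ± 0.10 in the authors' deposited table. The 3 differences ran from -1.03 to -1.46, with combined SEs of 0.18 to 0.24. Both rows of each pair were called and had opposite signs. Differences beyond these SEs follow from that and add no support.

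THAP9-AS1 is annotated on the same strand as SEC31A, a coat protein of vesicles leaving the endoplasmic reticulum, and within it, so reads could be shared whether or not strand was used. THAP9-AS1 rose from 276 to 377 normalized counts, a log2 fold change of 0.46 ± 0.12 (adjusted p = 0.00185) in the authors' deposited table. SEC31A fell from 6208 to 4837 counts, a log2 fold change of -0.37 ± 0.09 in the authors' deposited table. It was the only one of the 10 neighbour pairs whose noncoding member rose. Over the 9 pairs on opposite strands, 4 had the same sign, all lower, and 5 had opposite signs.

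**Figure D4:**
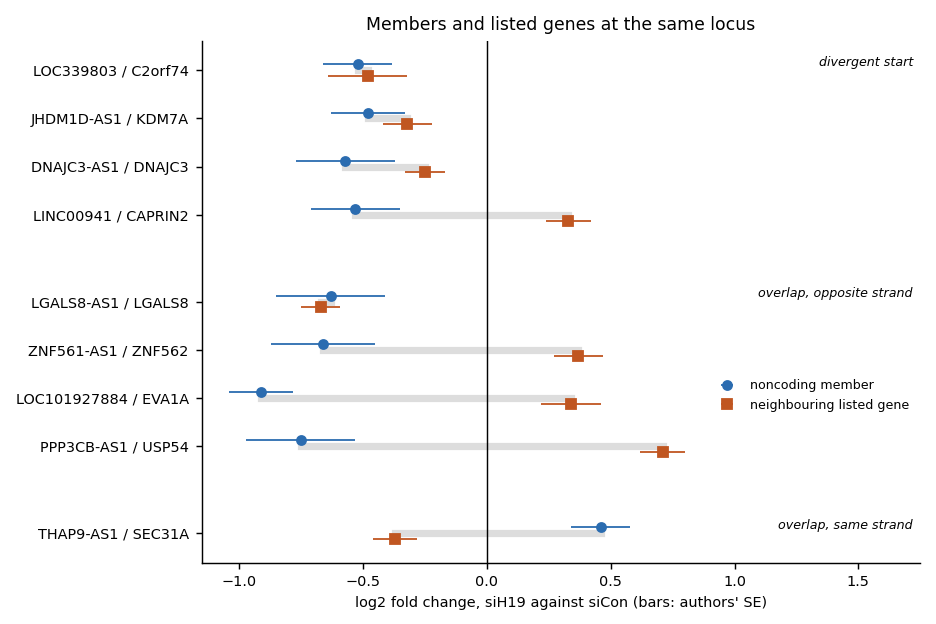
Log2 fold change of 9 noncoding members (blue circles) and of the listed gene at the same locus (orange squares), with the authors' SE as bars, grouped by arrangement in GENCODE release 29. THAP9-AS1 is the only blue circle right of 0.

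Among members without a listed neighbour, LOC728730 fell most. It is now MAP4K3-DT, a divergent transcript beside a protein kinase gene that is not a row. Its level went from 304 normalized counts in siCon to 153 in siH19, a log2 fold change of -0.99 ± 0.16 with an adjusted p written as 0 in the authors' deposited table. LBX2-AS1, beside a homeobox gene, went from 311 to 194 counts and changed by -0.68 ± 0.13 (adjusted p = 7.00e-06) in the authors' deposited table. LOC81691, the exonuclease gene, had the same log2 fold change, with 280 counts in siCon and 176 in siH19 in the authors' deposited table. LOC100129461, now LYRM4-AS1, and LOC374443 had log2 fold changes of -0.72 ± 0.21 and -0.71 ± 0.20 in the authors' deposited table.

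The 3 members of lowest mean count were LINC00659, RBPMS-AS1 and LOC101929633. LINC00659 went from 16.1 to 9.92 normalized counts, a log2 fold change of -0.70 ± 0.21 in the authors' deposited table, where counting error alone would give an SE of 0.336. RBPMS-AS1, opposite a gene for an RNA-binding protein, went from 18.4 to 12.1 counts (-0.60 ± 0.22) and LOC101929633 from 25.6 to 15.8 (-0.70 ± 0.22) in the authors' deposited table.

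MRPL23-AS1 lies on chromosome 11 near H19. It went from 48.2 to 30.5 normalized counts, a log2 fold change of -0.66 ± 0.21 (adjusted p = 0.0139) in the authors' deposited table. The other antisense names that fell had log2 fold changes from -0.66 for SDCBP2-AS1 to -0.37 for NIPBL-AS1 in the authors' deposited table. They included PRRT3-AS1 (-0.65), NPSR1-AS1 (-0.62), USP27X-AS1 (-0.60), NOP14-AS1 (-0.44), CTBP1-AS2 (-0.41) and WAC-AS1 (-0.38) in the authors' deposited table. NIPBL-AS1, beside the gene for the cohesin loader NIPBL, had the highest mean count among them and went from 750 to 580 normalized counts (adjusted p = 0.00647) in the authors' deposited table. CTBP1-AS2, beside a corepressor gene, had an adjusted p of 0.0498 in the authors' deposited table. No row exceeded this value, which was also reached among rows under 100 counts. Chromosome 2 held the most members of any chromosome, 7, all lower, beside 86.0% lower among all 43. The share of all listed rows on chromosome 2 was not counted.

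Remaining LINC and LOC members were lower within a narrow range. In the authors' deposited table, LINC00326 and LINC01124 each had a log2 fold change of -0.62. The LOC numbers in this group ran from -0.61 to -0.39 in the authors' deposited table, where LOC101927136 had the smallest change at -0.39 ± 0.15 (adjusted p = 0.0461). The others were LOC100272217, LOC389602, LOC101927934, LOC100129917, LOC101927482, LOC100506860 and LOC100129046.

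The remaining higher members were PINK1-AS, LOC90784 and LOC100506548. PINK1-AS lies opposite PINK1, the kinase that marks damaged mitochondria for removal. It rose from 182 to 282 normalized counts, a log2 fold change of 0.63 ± 0.14 (adjusted p = 9.00e-05) in the authors' deposited table, and PINK1 was not a row. LOC90784 rose from 148 to 236 counts (0.67 ± 0.14) and LOC100506548 from 253 to 324 (0.36 ± 0.13) in the authors' deposited table. With MIR600HG, THAP9-AS1 and LINC00657 they make up the 6, all of which had a mean count above 100.

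Noncoding genes that the name rule leaves out were also mostly lower, with some higher. RefSeq calls 11 such rows noncoding, of which 8 were lower (72.7%) and 3 higher, beside 55.3% lower among all rows. Their median log2 fold change was -0.55, against -0.27 over all rows. NEAT1, the scaffold of nuclear paraspeckles, fell from 4124 to 3259 normalized counts (log2 fold change -0.34 ± 0.11, adjusted p = 0.0216) in the authors' deposited table. HAGLR, antisense to HOXD genes, went from 969 to 495 counts (-0.97 ± 0.12) and LUCAT1 from 64.5 to 32.2 (-1.01 ± 0.20) in the authors' deposited table. Higher were UCA1 (0.79 ± 0.19), ZFAS1 (0.52 ± 0.09) and FIRRE (0.36 ± 0.13) in the authors' deposited table. ZFAS1, like SNHG16, hosts small nucleolar RNAs, and it went from 1168 to 1663 counts in the authors' deposited table, against the fall of SNHG16. Of 46 well-known long noncoding RNA symbols taken as outside the rule and matched as written, 5 were rows, 3 higher and 2 lower. The 46 include NORAD, a member listed under its older name LINC00657 and so not counted among the 5.

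Some genes of the pathways that make or degrade such RNAs were rows. The number of genes tested by the authors was not known here, and these counts therefore have no background share of listed genes. For microRNA processing 3 of 27 symbols were listed. DICER1, which cuts microRNA precursors, changed by -0.25 ± 0.08, TNRC6A, a partner of Argonaute, by 0.55 ± 0.10 and LIN28B, which blocks let-7 maturation, by 0.26 ± 0.08 on the log2 scale in the authors' deposited table. For nonsense-mediated decay, which degrades many spliced host transcripts, 4 of 21 were listed, 2 in each direction. CASC3 and RNPS1 of the exon junction rose by 0.40 ± 0.08 and 0.37 ± 0.12, and PNRC2 and DCP1A, tied to decapping, changed by -0.62 ± 0.09 and -0.30 ± 0.10 on the log2 scale in the authors' deposited table. Of 30 exosome and exonuclease symbols only XRN2 was a row, the nuclear exonuclease of transcription termination, at 0.24 ± 0.07 in the authors' deposited table. Of 23 chromatin regulators known to bind noncoding RNAs, 4 were rows. SUZ12, a Polycomb subunit, changed by -0.32 ± 0.09, and RBBP4, DNMT1 and CTCF by 0.29 ± 0.09, 0.27 ± 0.09 and 0.28 ± 0.08 on the log2 scale in the authors' deposited table.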

How the data were processed

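RNA was sequenced from 6 HepG2 libraries, 3 per group. The build hg19 and the programs DESeq2 1.0.0, STAR 2.5.0a and Cufflinks 2.2.1 are named, per the submitters' processing notes, without roles or order. Which annotation was used, and whether counting used strand, is not given in the sources used here. Per the file headers, the authors deposited 1 table with a log2 count per group, a mean count (a normalized signal, not whole reads), a log2 fold change, its SE and a q value (adjusted p-value). The deposited fold change equalled siH19 minus siCon within 0.01 in all rows. Values per library were not used here, columns from outside the series numbered 0, and no test was added, so a model per library foreseen in the design was not fitted.

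Members were taken by name pattern. The members, lists and sequence letters were chosen with earlier results of these data known. Named genes were those with a listed neighbour, SNHG and MIR members, the largest changes, the highest and lowest mean counts and listed pathway genes. Genes named beyond these, the ranges of mean count, the grouping by current name and the promoter letters were chosen after values were seen. Group counts were back-transformed from the deposited log2 values. Positions, strands and transcripts came from GENCODE release 29 and current names, promoters and microRNAs from RefSeq, both on GRCh38. Depth per library is unknown. Functions for counting, pairing and letter searches were tested on simulated data (Python 3.11.15, pandas 2.3.3). A result that needs a withheld item is not reported here, and counts over all members include it.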

Additional observations from a re-analysis of the deposited data

How the results depend on the processing

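More members were lower than higher under every alternative run, with 66.7% to 88.0% lower. The lowest share rests on 3 members and says little. The count of 37 lower members became 17 at an adjusted p under 0.01 and also 17 at a mean count of at least 100. It became 2 among members whose mean count reached the median of all rows, where 1 higher member was left and the median log2 fold change was -0.28, beside -0.27 for all rows. It became 22 for changes of at least 1.5-fold, with 3 higher, and also 22 without LOC numbers. Each of these settings has fewer members by construction. Leaving out the protein-coding member or members that overlap another row, or adding the noncoding rows of other names, gave 33 to 45 lower. The count of pairs with the same sign, 2 of 3 by name, was 1 of 4 for overlap on the opposite strand and 4 of 6 with starts within 5 kb added. It was 0 of 1 where both rows had an adjusted p under 0.01, and also 0 of 1 where both had a mean count of at least 100. No paired analysis was possible because the file holds 1 combined value per group, and for the same reason no library could be left out.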

Other observations

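Short sequences were counted in the longest annotated transcript of 38 members and of 1987 listed rows, as a description with no test. CATCAAA was found in 7 members (18.4%), 6 of them lower, and in 32.9% of all searched rows, of which 426 were lower and 227 higher. GCAGTAC was found in 2 members, LINC00657 and THAP9-AS1, both higher, and in 21.6% of all rows, of which 111 were lower and 318 higher. CTACCTC, the match of the let-7 seed, was found in 3 members (7.9%), LOC101927884, LOC81691 and SNHG16, all lower. It was found in 27.3% of all rows, of which 287 were lower and 255 higher. The member transcripts were shorter, with a median of 2488 bases against 3997, so shares are not directly comparable. Per 10 kb the members held 0.811 copies of CATCAAA against 1.03 in all rows, and 0.203 copies of GCAGTAC against 0.594. For CTACCTC the members held 0.304 copies against 0.760. CATCAAA and GCAGTAC had been picked out earlier from fold changes of these same data. Their split by direction, among the members or among all rows, is therefore no independent support.

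In promoter windows, the ETS core CCGGAAG was found on either strand in 10 of 35 members (28.6%), in 14.4% of the windows of all matched rows and in 10.7% of all RefSeq windows. CACGTG was found in 11.4%, 9.5% and 7.4% of them and TGACGTCA in 2.9%, 3.8% and 2.0%. Of the 5 letter runs, all chosen after values were seen, CCGGAAG stood furthest above all rows. The difference was not tested.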
